A study of Mus musculus with 2 samples.

Results

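Lipid droplets, the neutral fat stores of a cell, were examined through 10 genes of their coat and of triglyceride turnover in mouse heart: Plin2, Plin3, Plin4 and Plin5, Cidea, Dgat1 and Dgat2, Pnpla2, Lipe and G0s2. They were chosen by symbol, with identifiers matched to symbols in the deposited transcript table, and all 10 of 10 were found among the 55536 annotated genes. Total RNA was sequenced from the hearts of 2 female mice of strain B6CASTF1/J, an F1 hybrid of C57BL/6 and CAST parents, at 2 months of age. The animals are called animal 2 and animal 1 after their biological replicate numbers, and they form 1 group (n = 2), with no treatment named and 1 library each. The labels give both animals the same donor record and separate tissue samples. Each library started from 300 ng of RNA, was depleted of ribosomal RNA and carried ERCC spike-ins, synthetic transcripts of known amount. No other group was sequenced, so the data describe levels, transcripts and how far 2 animals of 1 kind differed.

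Triglyceride is made from diacylglycerol and an activated fatty acid at the endoplasmic reticulum, where droplets bud off, and is broken down at the droplet surface by a chain of lipases. Perilipins coat the droplet and control which lipases reach the fat inside. In heart muscle the store is small and turns over quickly, because the muscle burns fatty acids, and fatty acids taken up from blood can pass through the droplet before they are oxidised or signal to PPAR alpha.

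The library of animal 2 held 41790009 gene reads and that of animal 1 held 41862417. Levels are given in TPM, a relative abundance corrected for transcript length that sums to the same total in every library. The TPM scale itself differed between the animals: the log2 TPM ratio, animal 2 over animal 1, had a median of 0.22 in the gene table and 0.05 in the second quantification, over the 16133 genes that reached 20 reads. Cardiomyocyte markers were abundant in both libraries, with the 6 genes of that list summing to 29946 TPM in animal 2 and 25829 TPM in animal 1. In tissue RNA, fewer cells of a type and less RNA per cell cannot be told apart.

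All 10 genes were expressed, over a range from Pnpla2 at 160.8 ± 20.1 TPM to Dgat1 at 7.57 ± 0.870 TPM (SD, n = 2). Together they summed to 637 TPM in animal 2 and 563 TPM in animal 1, which was 0.141% and 0.147% of the TPM of nuclear protein-coding genes in animal 2 and animal 1. Among 11238 nuclear protein-coding genes that averaged 1 TPM or more, Pnpla2 ranked 344 and Dgat1 ranked 6134. The order ran from Pnpla2 to Dgat2, then a group of 3 perilipins (Plin3, Plin5, Plin4), then Plin2, then a lower group of Cidea, G0s2 and Lipe, and last Dgat1. Within each group of 3, the ranges of the 2 animals overlapped between neighbours, so the ranges gave no order there. Compared within each library, Cidea stood above G0s2 and Lipe in both animals, at 1.03 times G0s2 in animal 2 and 1.13 times in animal 1. Plin3 stood at 1.00 times Plin5 in animal 2 and 1.04 times in animal 1. The order of Plin5 and Plin4, and that of G0s2 and Lipe, changed between the animals. Between the groups the ranges did not overlap. The second quantification raised every one of the 10 mean levels, by 1.07 times for Plin5 up to 1.51 times for Plin3, and there Plin3 stood apart from Plin5, at 1.43 times its TPM in animal 2 and 1.46 times in animal 1.

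**Figure D1:**
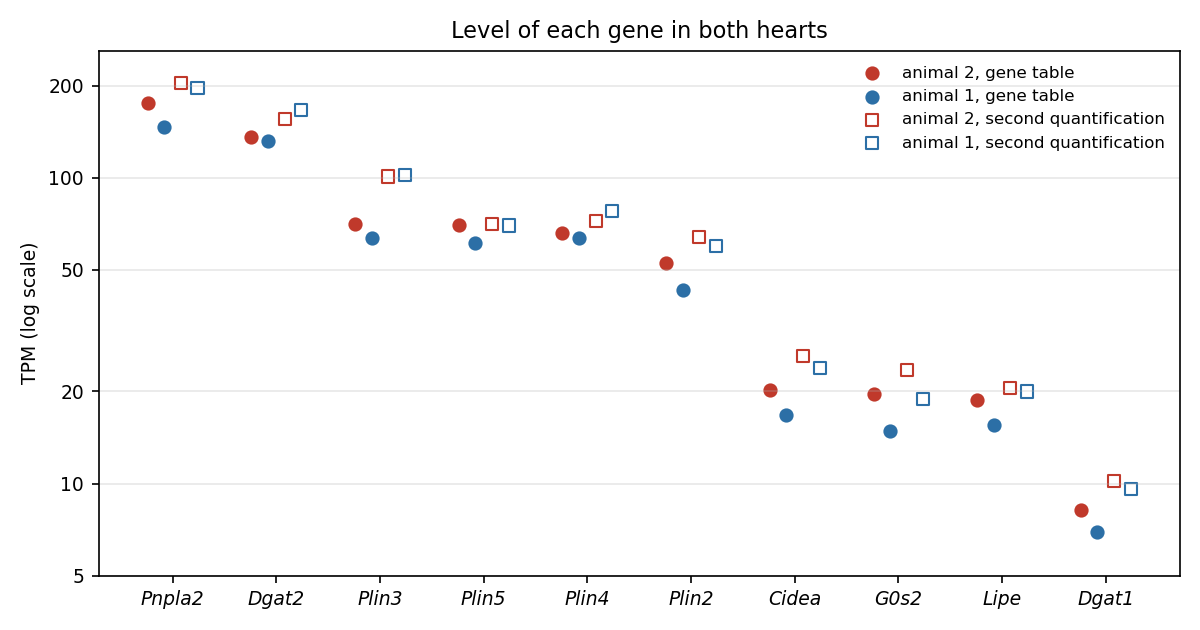
TPM of each of the 10 genes on a log scale, in animal 2 (red) and animal 1 (blue), from the gene table (filled circles) and the second quantification (open squares). Pnpla2 and Dgat2 sit highest and Dgat1 lowest in both animals and both quantifications.

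Among the coat genes, 3 perilipins had nearly equal levels in the gene table. Plin5 (ENSMUSG00000011305.11; mm10 chr17:56111601-56117596, minus strand) encodes the perilipin of oxidative tissues, which holds droplets next to mitochondria and binds both the lipase encoded by Pnpla2 and its activator. It had 70.2 TPM in animal 2 and 61.0 TPM in animal 1 (65.6 ± 6.54 TPM). Plin4 (ENSMUSG00000002831.13; chr17:56100591-56109803, minus strand), its neighbour on the same strand, encodes a coat protein found on droplets of fat and striated muscle. It had 66.2 TPM in animal 2 and 63.3 TPM in animal 1 (64.8 ± 2.03 TPM). Plin3 (ENSMUSG00000024197.10; chr17:56277476-56292873, minus strand) encodes a widely expressed perilipin that moves between cytosol and newly formed droplets, and lies on the same chromosome. It had 70.4 TPM in animal 2 and 63.5 TPM in animal 1 (66.9 ± 4.83 TPM). A partial Plin3 model, Plin3-202, held 37.0 TPM of this in animal 2 and 33.0 TPM in animal 1. The full Plin3-201 held 33.3 TPM in animal 2 and 30.5 TPM in animal 1, so the match of Plin3 to the others depended on the partial model. In the gene table the animals' ranges of all 3 genes overlapped with those of the other 2.

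Plin2 (ENSMUSG00000028494.12; chr4:86648386-86670060, minus strand), which encodes a coat protein of most non-adipose cells whose protein is stable only while bound to a droplet, was lower. It had 52.6 TPM in animal 2 and 43.0 TPM in animal 1 (47.8 ± 6.77 TPM), so the higher Plin2 value lay below the lower value of each of the 3 other perilipins. Plin5 stood at 1.33 times the TPM of Plin2 in animal 2 and 1.42 times in animal 1, and in the second quantification at 1.11 and 1.16 times in animal 2 and animal 1. These ratios depended on shorter Plin2 models. The longest, Plin2-201, held 25.8 TPM of the Plin2 level in animal 2 and 20.7 TPM in animal 1. Of the summed TPM of the 5 perilipin genes, Plin3 made up 26.7% in animal 2 and 27.2% in animal 1, Plin5 26.6% and 26.2%, Plin4 25.1% and 27.2%, and Plin2 19.9% and 18.5%, in the same order of animals. Plin1, the perilipin of fat cells, held the remaining 1.73% in animal 2 and 0.978% in animal 1. These shares are of gene table TPM, summed over all models of each gene. In the second quantification Plin3 made up 32.2% in animal 2 and 32.5% in animal 1, and Plin5 22.5% and 22.3%, in the same order. Cidea (ENSMUSG00000024526.9; chr18:67343604-67367785, plus strand), which encodes a protein that fuses droplets and is best known from brown fat, had 20.3 TPM in animal 2 and 16.8 TPM in animal 1 (18.5 ± 2.50 TPM). That was below every perilipin except Plin1.

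The enzymes that close triglyceride synthesis were expressed very unequally. Both add the last fatty acid to diacylglycerol, but they belong to unrelated protein families. Dgat2 (ENSMUSG00000030747.5; chr7:99153658-99182719, minus strand) had 135.9 TPM in animal 2 and 131.6 TPM in animal 1 (133.7 ± 3.10 TPM). Dgat1 (ENSMUSG00000022555.12; chr15:76502015-76511953, minus strand) had 8.18 TPM in animal 2 and 6.95 TPM in animal 1 (7.57 ± 0.870 TPM), from 395 and 386 reads in animal 2 and animal 1. The Dgat2 transcript therefore stood at 16.6 times the Dgat1 TPM in animal 2 and 18.9 times in animal 1. The second quantification gave 15.3 times in animal 2 and 17.4 times in animal 1, so the gap was far larger than the spread between animals or between quantifications.

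On the breakdown side, the first lipase of the chain led. Pnpla2 (ENSMUSG00000025509.15; chr7:141455198-141460743, plus strand) encodes adipose triglyceride lipase, which takes the first fatty acid off triglyceride. It had 174.9 TPM in animal 2 and 146.6 TPM in animal 1, the highest of the 10 genes in both. Lipe (ENSMUSG00000003123.15; chr7:25379527-25398710, minus strand) encodes hormone-sensitive lipase, which acts next, on diacylglycerol. It had 18.8 TPM in animal 2 and 15.5 TPM in animal 1 (17.1 ± 2.33 TPM), so that Pnpla2 stood at 9.31 times the TPM of Lipe in animal 2 and 9.46 times in animal 1. G0s2 (ENSMUSG00000009633.3; chr1:193272161-193273217, minus strand) encodes a small protein that binds and inhibits adipose triglyceride lipase. It had 19.7 TPM in animal 2 and 14.9 TPM in animal 1 (17.3 ± 3.41 TPM). Abhd5, which encodes the activator of the same lipase, had 23.4 TPM in animal 2 and 20.1 TPM in animal 1. Summed over all its models, Pnpla2 thus stood above both regulators in TPM. It was at 8.88 times G0s2 in animal 2 and 9.86 times in animal 1. Against Abhd5 it was at 7.46 times in animal 2 and 7.30 times in animal 1. Models annotated as coding held 39.3% of Pnpla2 TPM in animal 2 and 41.9% in animal 1, against 100% for G0s2. For Lipe they held 97.6% in animal 2 and 97.9% in animal 1, and for Dgat2 98.9% and 98.8%. The first place of Pnpla2 and its ratio to Lipe are therefore of all models together, and depend on models not annotated as coding.

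Between the animals, none of the 10 genes differed by 2-fold. Reads, not TPM, were compared, after scaling by TMM, which corrects library sizes for composition. Over all genes tested, the median log2 ratio of reads was 0.077 when scaled by total gene reads and -0.002 after TMM. The scaled reads were compared with a two-sided exact binomial test adjusted over 16133 genes by the Benjamini-Hochberg method. This test compares 2 libraries by counting error alone, is no test of a condition and has no replicate check. It called 0 of the 10 genes at an adjusted p under 0.05 with at least 2-fold, against 1.38% of all genes tested. With no fold minimum, 0 of the 10 were higher in animal 2, against 6.6% of all genes, and 3 were lower in animal 2, against 4.75% of all genes. Small differences pass this second rule most easily in genes with many reads: among the 4554 genes with at least 2000 reads, 8.26% were lower and 13.2% higher in animal 2. The median log2 ratio of the 10 genes was -0.003 and that of all genes tested -0.002, with 5 of the 10 above 0 and 5 below.

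The 3 genes past counting error were Dgat2, Plin4 and Plin3, all by small amounts. Dgat2 drew 9692 reads in animal 2, against 10368 in animal 1, a scaled ratio of 0.886 (95% interval 0.862 to 0.911; exact binomial adjusted p = 1.03e-15). Plin4 drew 12491 reads in animal 2, against 13290 in animal 1, a scaled ratio of 0.891 (0.870 to 0.913; exact binomial adjusted p = 2.04e-18). Plin3 drew 4513 reads in animal 2, against 4584 in animal 1, a scaled ratio of 0.933 (0.896 to 0.973; exact binomial adjusted p = 0.0127). The call for Plin3 was lost when libraries were scaled by spike-in reads (exact binomial adjusted p = 0.0957) or by total gene reads (0.722), while Dgat2 and Plin4 stayed lower in animal 2 on every scale used. These directions are of scaled reads. In gene table TPM, which carries the shift of scale, all 10 genes including these 3 were higher in animal 2, and in TPM of the second quantification Dgat2, Plin3 and Plin4 were lower in animal 2.

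The other 7 genes did not pass counting error. G0s2 had the highest ratio, 1.13 (0.990 to 1.29), from 507 reads in animal 2 and 426 in animal 1. Plin2 drew 2020 reads in animal 2, against 1821 in animal 1, a ratio of 1.05 (0.987 to 1.12). Pnpla2 drew 10126 reads in animal 2, against 9468 in animal 1, and had the narrowest interval of the 7, a ratio of 1.01 (0.986 to 1.04). Lipe and Cidea stood at 1.04 (0.969 to 1.11) and 1.03 (0.925 to 1.15), and Plin5 and Dgat1 at 0.982 (0.941 to 1.02) and 0.970 (0.841 to 1.12). All intervals of the 10 genes exclude a 2-fold difference by counting error, which leaves out variation from tissue handling. Scaling by total gene reads, with no correction for composition, placed G0s2, Lipe, Plin2 and Pnpla2 past counting error, higher in animal 2.

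**Figure D2:**
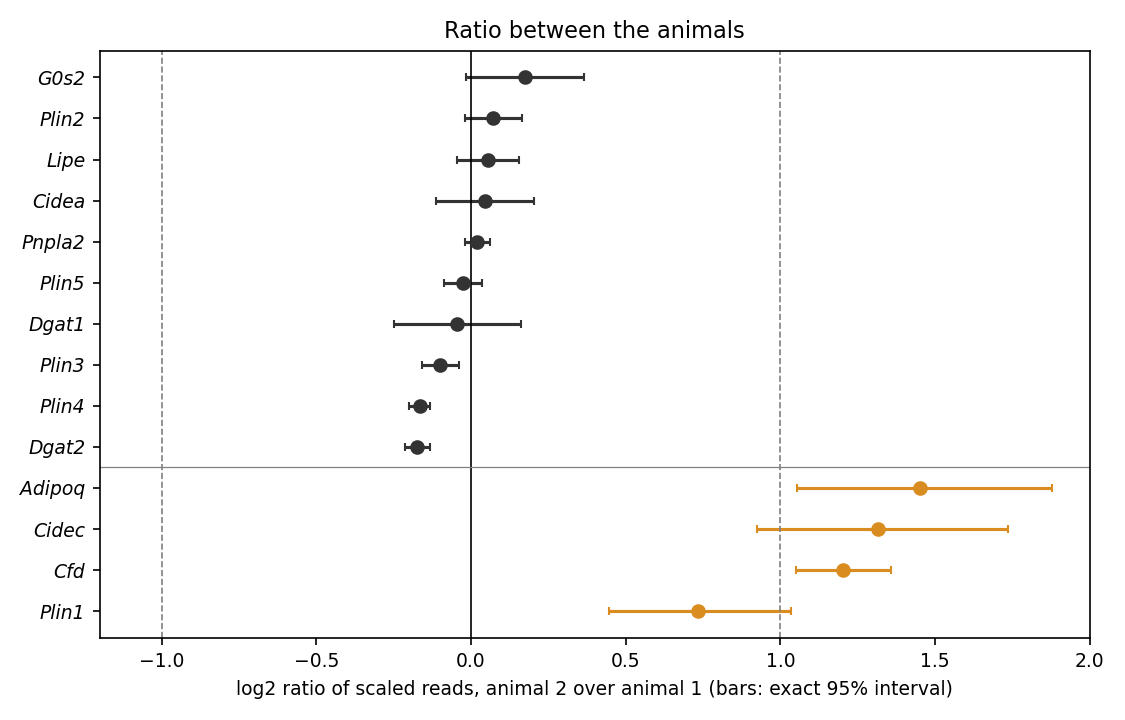
Log2 ratio of scaled reads, animal 2 over animal 1, with exact 95% intervals from counting error, for the 10 genes (black, above the line) and for Adipoq, Cidec, Cfd and Plin1 (orange, below). The solid line marks no difference and the dashed lines 2-fold. The black points lie between -0.17 and 0.17, while the orange ones lie between 0.74 and 1.45. The orange genes were picked after their values were seen. Tested white adipocyte markers not drawn stood at 1.13 (Acvr1c), 1.03 (Tshr), 0.35 (Adrb3) and 0.28 (Retn).

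Several genes known from white fat cells had larger ratios between the animals than any of the 10 genes. Plin1, named after its values were seen, had 269 reads in animal 2 and 153 in animal 1, 1.66 times as many after scaling (1.36 to 2.05; exact binomial adjusted p = 1.0e-05). Cidec, which encodes a droplet fusion protein of fat cells, had 190 reads in animal 2 and 72 in animal 1, 2.49 times as many (1.90 to 3.33; exact binomial adjusted p = 1.77e-10). Of the 47 other genes of the pathway with enough reads to test, it was the 1 past 2-fold, against 0.483% of all genes tested higher in animal 2 by that rule. The 8 white adipocyte markers summed to 51.6 TPM in animal 2, against 19.6 TPM in animal 1. Cfd alone made up 43.4 TPM of this in animal 2 and 16.1 TPM in animal 1. Of the 6 with enough reads, 3 were called higher in animal 2: Adipoq (2.73-fold), Cfd (2.30-fold) and Acvr1c (2.19-fold). The other 3, Tshr (2.05-fold), Adrb3 (1.275-fold) and Retn (1.21-fold), were not past counting error. Lep, the leptin gene, was near 0, at 0.13 TPM in animal 2 and 0.12 TPM in animal 1. The 4 brown adipocyte markers summed to 5.66 TPM in animal 2 and 3.24 TPM in animal 1. The 2 with enough reads, Ucp1 (1.49-fold) and Dio2 (1.48-fold), were past counting error, higher in animal 2. Zic1 had 0 reads in both animals in the gene table. Adipose tissue is known to express the 10 genes as well. Cidea stood at 4.34 times the TPM of Cidec in animal 2 and 8.83 times in animal 1, and Plin2 at 11.5 times the TPM of Plin1 in animal 2 and 18.9 times in animal 1. The part of fat cell RNA in the levels of the 10 genes was not tested. Sums of endothelial markers (158 TPM in animal 2, 118 TPM in animal 1), fibroblast markers (244 and 186 TPM, in the same order), macrophage markers (56.1 and 41.1 TPM) and erythroid genes (34706 and 29674 TPM) were also higher in animal 2 on the TPM scale. Past counting error on scaled reads were 4 of 4 endothelial, 3 of 4 fibroblast and 3 of 5 macrophage markers, all higher in animal 2, and 1 erythroid gene in each direction. Of the 6 cardiomyocyte markers, 3 were lower (Myh6, Ryr2 and Tnnt2, at 0.949, 0.949 and 0.978 times) and 1 was higher in animal 2 (Actc1, at 1.07 times).

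The other genes of the pathway were taken from 8 lists with 51 genes, of which 47 had enough reads to test. Past counting error, 8 were higher and 3 lower in animal 2, 36 were not, and their median log2 ratio was 0.01, against -0.002 for all genes tested. Supply led the levels. Lpl, the lipase that frees fatty acids from lipoproteins at the vessel wall, had 1595 TPM in animal 2, against 1350 TPM in animal 1, and Cd36, a fatty acid carrier of the cell surface, had 732 TPM in animal 2 and 630.0 TPM in animal 1. Acsl1, the main acyl-CoA synthetase of heart, had 340 TPM in animal 2 and 289 TPM in animal 1, far above the other 4 genes of its list, of which Acsl5 was highest with 5.48 TPM in animal 2 and 4.21 TPM in animal 1.

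Of the earlier steps of glycerolipid synthesis, Agpat3, an acyltransferase, had 91.8 TPM in animal 2 and 72.9 TPM in animal 1. Lpin1, a phosphatidate phosphatase that makes diacylglycerol, had 70.3 TPM in animal 2 and 61.4 TPM in animal 1. The diacylglycerol route of the gut was close to absent: Mogat2, an intestinal acyltransferase, was at 0 TPM in both animals. The sterol ester enzyme Soat1 was low, at 3.12 TPM in animal 2, against 2.31 TPM in animal 1, and Soat2, its relative of liver and gut, was at 0.04 TPM in animal 2 and 0 TPM in animal 1. Fitm2 and Fitm1, proteins of the endoplasmic reticulum needed for droplet budding, were both well expressed. Fitm2 had 86.4 TPM in animal 2, against 77.0 TPM in animal 1, and Fitm1, the form typical of striated muscle, had 72.7 TPM in animal 2 and 61.1 TPM in animal 1.

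Among other lipases, Ces1d, a carboxylesterase that can cleave triglyceride, had 125.7 TPM in animal 2 and 107.6 TPM in animal 1. Mgll, the lipase that ends the chain at monoacylglycerol, had 45.0 TPM in animal 2, against 32.6 TPM in animal 1, and was 1.22-fold higher in animal 2 on scaled reads (1.17 to 1.28; exact binomial adjusted p = 7.02e-19). Of the droplet-bound proteins, Rab18, a small GTPase, had 63.7 TPM in animal 2, against 53.2 TPM in animal 1, and Aup1 had 31.2 TPM in animal 2 and 27.4 TPM in animal 1. Hsd17b13, a droplet protein of liver, was at 0 TPM in both animals in the gene table. Of the regulators, Ppara, the fatty acid receptor that drives droplet and oxidation genes, had 26.7 TPM in animal 2 and 21.7 TPM in animal 1. Its coactivator Ppargc1a had 64.1 TPM in animal 2, against 40.5 TPM in animal 1, and was 1.32-fold higher in animal 2 on scaled reads (1.27 to 1.37; exact binomial adjusted p = 7.77e-46).

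**Figure D3:**
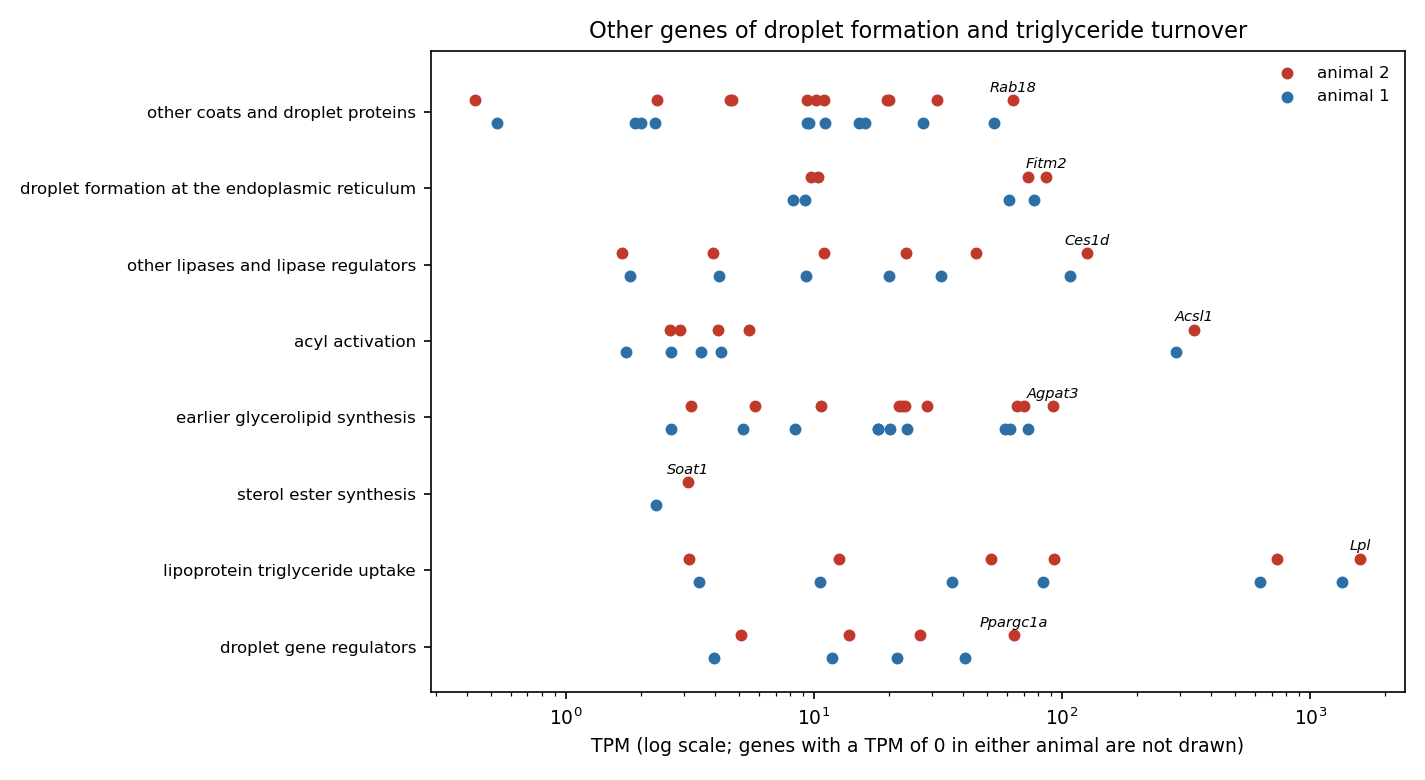
TPM on a log scale of the other genes of the pathway, 1 row per list and 1 point per gene, with animal 2 (red) above animal 1 (blue) and the highest gene of each list named. Lpl, Cd36 and Acsl1 lie to the right of all others, at 1595, 732 and 340 TPM in animal 2 and 1350, 630.0 and 289 TPM in animal 1.

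Most Pnpla2 RNA was assigned to transcripts that are not annotated as protein coding, 60.7% of TPM in animal 2 and 58.1% in animal 1. Pnpla2-201, annotated as a target of nonsense-mediated decay, the route that destroys RNA with an early stop codon, took 57.8% of the gene's TPM in animal 2 and 56.7% in animal 1. The second quantification gave it 49.6% in animal 2 and 45.9% in animal 1. Pnpla2-201 and Pnpla2-204 share an exon of 82 bases (mm10 chr7:141456568-141456649, plus strand) that the other 5 transcripts lack. Together they took 59.2% of TPM in animal 2 and 56.7% in animal 1, and 57.9% and 55.7% in the second quantification, in the same order of animals. The start of this exon up to the first stop codon in the annotated frame (GRCm38, chr7:141456568-141456593) is shown because that stop, in capitals, sets the annotation apart:
Pnpla2 exon start: gtgatcttgagcagctagaacaaTGA
Of the transcripts annotated as coding, Pnpla2-206, a partial model, took 16.8% in animal 2 and 18.0% in animal 1. Pnpla2-202 took 17.8% in animal 2 and 16.8% in animal 1, and Pnpla2-203, the longest model, 4.74% in animal 2 and 7.08% in animal 1.

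The annotation limits what these shares say about the exon itself. Pnpla2-201 and Pnpla2-204 are also the only models that hold both a later exon of 168 bases and a last exon ending between positions 141460092 and 141460103. Pnpla2-202 has a last base at 141460094 but lacks the 168-base exon, and Pnpla2-203 has that exon but runs on to 141460743. A molecule without the 82-base exon, with the 168-base exon and with the shorter end has no model of its own, and its reads outside the 82 bases could be assigned to Pnpla2-201. Reads per exon or junction were not analysed here, so the inclusion of the 82-base exon was not tested.

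**Figure D4:**
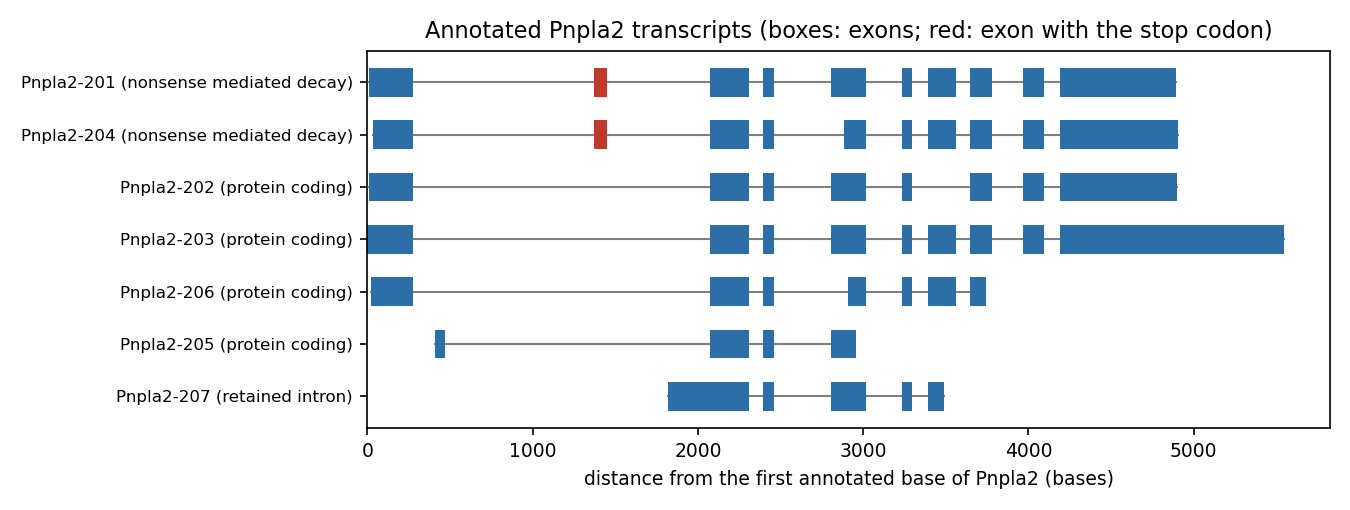
Exons (boxes) and introns (lines) of the 7 annotated Pnpla2 transcripts by distance in bases from the first annotated base, to scale. The exon with the early stop (red) occurs in Pnpla2-201 and Pnpla2-204, the upper rows, and in no other model.

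Plin5 RNA was assigned to models with 2 starts. Plin5-201 and Plin5-202 share a stretch of 1887 of the 1986 bases of each and have different first exons, with starts at positions 56117596 and 56117298. Plin5-201, from the upstream start, took 69.9% of the gene's TPM in animal 2 and 65.7% in animal 1. In the second quantification it took 89.3% in animal 2 and 89.2% in animal 1, so the upstream start led in both, by a share that depended on the quantification. Assignment of reads between the 2 Plin5 models was loose. Plin5-202 had 1333 reads in animal 2 and 1464 in animal 1, with a posterior SD of 173 and 191 reads. The Lipe models also had several starts. Lipe-208, a coding model of 3171 bases, took 47.5% in animal 2 and 55.4% in animal 1 (62.7% and 62.9% in the second quantification, in the same order). Lipe-202, which starts upstream of it at 25390106, took 42.1% in animal 2 and 32.8% in animal 1 (25.4% and 19.8%). Read assignment between these models was loose, with a posterior SD of 66.9 reads in animal 2 and 57.3 in animal 1 on the 915 and 979 reads of Lipe-208 in animal 2 and animal 1. Lipe-201, which starts furthest upstream of the 3, at 25396379, took 4.84% in animal 2 and 4.38% in animal 1.

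Sequences before the starts of the Plin5 models and of Lipe-202 show what the alternative starts lie next to, and the Plin2 stretch is the 1 window of the set that holds a receptor-type repeat. They are RefSeq promoter windows (GRCm38.p6, all minus strand, 5′ to 3′) cut at the GENCODE start of the transcript. The Plin5-202 stretch was also cut at its upstream end, where it meets the first exon of Plin5-201. Capitals mark matches on either strand to AGGTCA (a half-site), to GGGCGG (a GC box), to CCAAT and to the repeat described next:
Plin5-201, chr17:56117597-56117798: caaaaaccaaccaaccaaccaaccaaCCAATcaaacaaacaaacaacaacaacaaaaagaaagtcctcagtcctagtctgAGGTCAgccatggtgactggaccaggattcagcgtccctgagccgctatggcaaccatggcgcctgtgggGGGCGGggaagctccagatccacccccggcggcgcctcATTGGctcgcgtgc
Plin5-202, chr17:56117299-56117501: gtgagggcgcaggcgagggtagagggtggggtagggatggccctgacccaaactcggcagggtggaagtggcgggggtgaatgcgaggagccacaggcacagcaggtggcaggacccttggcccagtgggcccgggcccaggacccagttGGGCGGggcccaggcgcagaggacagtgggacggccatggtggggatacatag
Lipe-202, chr7:25390107-25390362: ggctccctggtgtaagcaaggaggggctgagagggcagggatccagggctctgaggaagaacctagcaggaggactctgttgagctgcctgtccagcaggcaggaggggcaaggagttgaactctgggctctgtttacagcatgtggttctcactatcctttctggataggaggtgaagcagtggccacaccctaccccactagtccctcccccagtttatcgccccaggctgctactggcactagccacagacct
Plin2-201, chr4:86670061-86670309: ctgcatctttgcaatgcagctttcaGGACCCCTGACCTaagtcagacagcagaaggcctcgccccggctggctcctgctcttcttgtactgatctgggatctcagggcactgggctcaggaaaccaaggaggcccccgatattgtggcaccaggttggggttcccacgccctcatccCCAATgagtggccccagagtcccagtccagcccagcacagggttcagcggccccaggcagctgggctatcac
The tables held 9 windows of 300 bases for 7 of the 10 genes. AGGTCA is the half-site that many nuclear receptors bind, and PPAR with its partner binds 2 of them in a row with 1 base between. With up to 2 mismatches in all, such a repeat was found on either strand in 3.86% of 32851 windows genome-wide, and among the 9 windows in that of Plin2, where it begins at position -225 from the RefSeq start, reads on the opposite strand and overlaps a half-site. AGGTCA alone occurred in 16.3% of all windows, GGGCGG in 35.7%, CCAAT in 37.4%, CACGTG in 7.15% and TATAAA in 13.6%. No window of the 7 genes held TATAAA. Before Plin5-201 there was a half-site and a GC box, with a CCAAT box on either side of the pair, before Plin5-202 a GC box, and before Lipe-202 no match to these letters. A match is a description of letters and was not tested as a binding site.

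The remaining genes differed in how firmly their transcripts could be told apart. Plin4-202 took 100% of Plin4 in the first quantification in both animals, but it differs from Plin4-201 by 1 extra first base, and the second quantification gave it 53.4% in animal 2 and 65.5% in animal 1. Plin3-202, a partial model of 562 bases, took 52.6% of TPM in animal 2 and 51.9% in animal 1, but 12.7% and 12.4% of the reads in animal 2 and animal 1. The full Plin3-201 held 47.4% of TPM in animal 2 and 48.1% in animal 1, with 87.3% and 87.6% of the reads. Short models gain weight in TPM, because each read counts for more per base of a short model. Plin2-201 took 49.0% of TPM in animal 2 and 48.1% in animal 1 and 76.2% and 75.5% of reads, in the same order.

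Next to Plin2-201 stood Plin2-208, a processed transcript with no annotated protein, with 26.5% in animal 2 and 24.4% in animal 1. The coding fragment Plin2-205 took 23.8% in animal 2 and 25.2% in animal 1. In the second quantification Plin2-205 had 2.72% in animal 2 and 0% in animal 1, and Plin2-207 took 21.1% in animal 2 and 26.7% in animal 1 in its place. Dgat1-201, the 1 coding model of Dgat1, took 68.2% in animal 2 and 71.7% in animal 1, and models with retained introns or without a protein took 31.8% in animal 2 and 28.3% in animal 1. Of these, Dgat1-205, a retained intron, held 10.1% in animal 2 and 13.0% in animal 1, and Dgat1-210 reached 13.2% in animal 2 and 9.96% in animal 1 in the second quantification. Dgat2-201 held 98.5% of Dgat2 in animal 2 and 97.7% in animal 1. Cidea and G0s2 have 1 annotated transcript each.

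**Figure D5:**
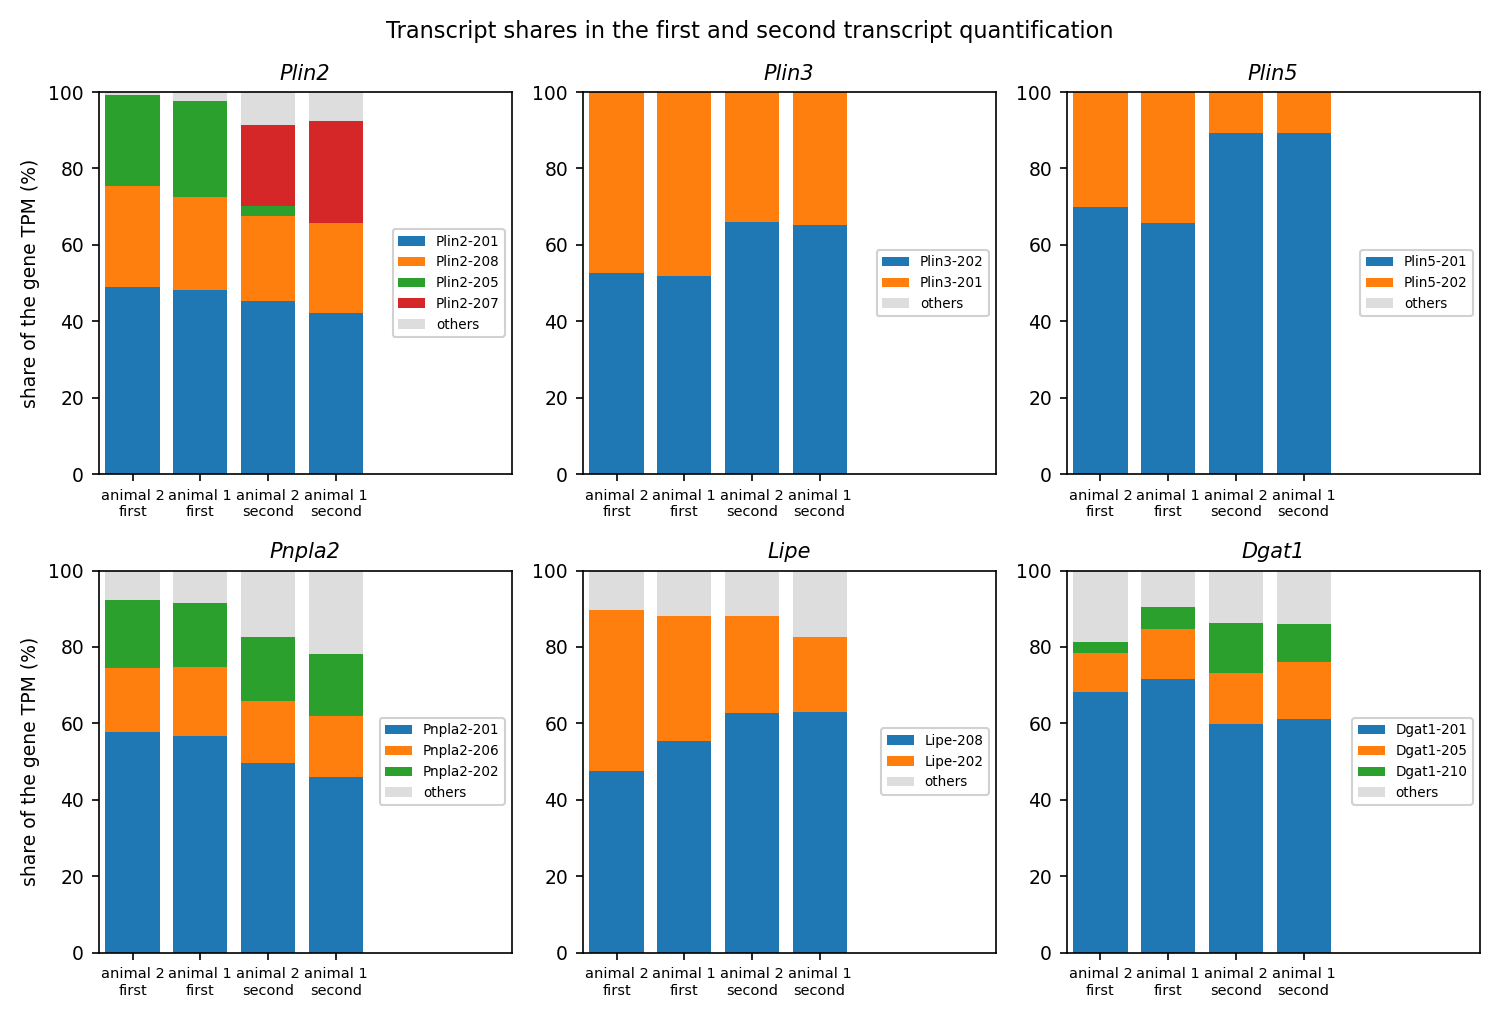
Share of each gene's TPM (%) by transcript for 6 genes, in animal 2 and animal 1, in the first and the second transcript quantification. Transcripts with a share of at least 10% in any bar are coloured and the rest are grey. Plin5-201 differs more between the quantifications than between the animals, at 69.9% and 65.7% in the first and 89.3% and 89.2% in the second, animal 2 before animal 1.

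Overlapping genes could touch few of these levels. G0s2 lies inside Lamb3 on the other strand with 0 shared exon bases, and Cidea overlaps B430212C06Rik with 0. Plin4 shares 17 exon bases with Hdgfl2 on the other strand. Lipe shares 918 exon bases with 4732471J01Rik, an antisense gene that held 11 reads in animal 2 and 13 in animal 1, against 1712 and 1563 reads of Lipe in animal 2 and animal 1. No source used here states a strand setting for the counting, so reads of such pairs may not be separable.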

How the data were processed

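Each library came with a gene table and a pair of transcript tables. Per the file headers, the gene table and the first transcript table follow the layout of RSEM, and their expected counts are reads estimated by the authors, not normalised, from alignments to mm10 transcripts with the GENCODE M21 annotation named in the deposited readme. The second transcript table follows the layout of kallisto, with estimated counts and TPM that were summed per gene here. TPM in each table was scaled by the authors over everything listed there, including the spike-ins of the gene table, per the file headers. The aligner, tool versions and filters are stated in no source used here. Both parental alleles of the hybrid were read against mm10, and the loss of reads from the CAST allele was not tested. The other deposited column used, the posterior standard deviation of a count, is a spread of read assignment within 1 library.

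Entries with a number for a name (26248, with 2 reads in animal 2 and 4 in animal 1, which is 4.8e-06% and 9.5e-06% of reads) stayed out of library sizes and tests. Expected counts were rounded, and 16133 genes with at least 20 reads were tested after TMM scaling (edgeR 4.0.16, R 4.3.3) by a two-sided exact binomial test (SciPy 1.17.1) with Benjamini-Hochberg adjustment at 0.05. Log2 ratios used a prior count of 0.5, and intervals are exact 95% intervals that cover counting error only. No molecular identifiers are named, so reads copied from 1 molecule may have been counted as separate. edgeR's quasi-likelihood test was not usable with 1 library per animal and 1 group. The test was checked on simulated data that held counting error and no variation between animals, so the check cannot speak to such variation. Alternatives were DESeq2 1.42.0 size factors, total gene reads, spike-in reads, no read filter, the second quantification, each animal alone and, chosen after seeing the data, transcript shares by reads.

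The 10 genes, the lists and the naming rule were chosen with earlier results of these data known. The text names the 10 genes, genes of 8 other lists that passed 2-fold, were the 2 highest of a list or were below 0.1 TPM in both animals, and transcripts with the highest mean or a share of at least 10%. Genes of other lists named outside that rule were chosen after their values were seen: Plin1, Abhd5 and the marker genes. Promoter windows and the Pnpla2 exon were read from RefSeq (GRCm38.p6) and GENCODE M21 tables; Cidea, Dgat1 and Dgat2 had no window in use. Protein sequences were not used here.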

Additional observations from a re-analysis of the deposited data

How the results depend on the processing

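Mean levels depended on the denominator and, except for Plin5, on the quantification. The second quantification gave means of 61.9 TPM for Plin2, 101.3 for Plin3, 75.0 for Plin4, 25.0 for Cidea, 9.89 for Dgat1, 161.4 for Dgat2, 199.8 for Pnpla2, 20.3 for Lipe and 21.2 for G0s2. Rescaling to nuclear protein-coding genes gave 114.4 for Plin2, 160.8 for Plin3, 155.9 for Plin4, 157.3 for Plin5, 44.4 for Cidea, 18.1 for Dgat1, 322 for Dgat2, 385 for Pnpla2, 41.0 for Lipe and 41.2 for G0s2. Total gene reads in place of TMM turned the log2 ratio of Plin5 to 0.053 and of Dgat1 to 0.036, and the second quantification turned Dgat1 to 0.015; none of these passed counting error. Total gene reads placed 2994 genes higher and 377 lower in animal 2 past counting error, against 1064 and 767 with TMM, and 4 of the 10 genes higher, against 0. The second quantification gave mean shares of 43.9% for Plin2-201, 65.5% for Plin3-202, 59.5% for Plin4-202, 89.2% for Plin5-201, 60.4% for Dgat1-201, 47.8% for Pnpla2-201 and 62.8% for Lipe-208. Shares of reads in place of TPM were 75.8% for Plin2-201, 12.5% for Plin3-202, 84.95% for Dgat1-201, 99.6% for Dgat2-201, 64.2% for Pnpla2-201 and 58.1% for Lipe-208. The cause was not tested. DESeq2 size factors, spike-in reads and no read filter moved no count of calls by over 1.5 times; 223, 224 and 267 genes were called, against 222. Of the fat cell genes, Acvr1c missed the call without a filter (exact binomial adjusted p = 0.0676) and in the second quantification (0.0504), over a range of 0.0142 to 0.0676. No paired analysis was possible because the series has 1 group of 2 animals. With n = 2 no spread between animals could be estimated for a test, and Dgat1 and G0s2, with the fewest reads, have the widest intervals.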
